A study of Mus musculus with 18 samples.

Results

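The 10 genes described here encode transcription factors that set or mark the epithelial lineages of the mammary gland: Elf5, Elf3, Ehf, Gata3, Foxa1, Tbx3, Sox9, Sox10, Trp63 and Runx1. They were taken by symbol for their known roles, by a rule that uses no measured value, though with earlier results of these data known. Each was found once in both deposited count tables, which held 56691 genes for the estradiol experiment and 56893 for the Torin experiment. All 10 passed the filter on low counts in both experiments, among 15358 and 18112 genes tested.

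Mammary ducts have an inner luminal layer, made of secretory progenitors and hormone-sensing cells, and an outer basal layer of contractile myoepithelial cells. Elf5, Elf3 and Ehf belong to the epithelial branch of the ETS family, and Elf5 drives the secretory alveolar program downstream of prolactin. Gata3, Foxa1 and Tbx3 mark luminal cells and are tied most closely to the hormone-sensing ones, where Foxa1 opens chromatin for the estrogen receptor. Sox9 is found in luminal progenitors, Sox10 in progenitor and basal cells, and Trp63 encodes p63, the master factor of the basal layer. Runx1 acts in both layers and restrains the Elf5 program in luminal cells.

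RNA came from organoids grown from purified mammary epithelial cells of wild-type C57BL/6 mice that had not borne young, with 3 mice named for the series. Estradiol, the main estrogen, was given at 10 nM for 11 days of a 12-day culture, and its control received 96% ethanol diluted 1:1000, with mice of about 24 weeks. Torin (Torin 1 in the series text), an inhibitor of the mTOR kinase, was given at 100 nM, and its control received DMSO diluted 1:1000, with mice of about 15 weeks and 18 days of culture in Matrigel. It had arms named D6 and D12, each with its own DMSO group, which sample titles read as 6 and 12 days of treatment and the series design in the reverse order. The arms also carry separate batch tags, so batch, length of treatment and its start cannot be told apart. Each of the 6 groups had 3 libraries, and the labels do not say whether these came from different mice, cultures or wells, so p-values measure only the spread between these libraries. All groups were grown in EpiCult-B mouse medium, with serum on the first day.

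The 6 estradiol-experiment libraries held 20637765 to 24312389 counts each, and the 12 of the Torin experiment 23239364 to 28910688. Levels are given as CPM, counts scaled to a common library total with TMM, the scaling of edgeR. Epithelial identity was checked on 12 pan-luminal and 17 basal markers, all of which had counts, with summed levels of 5887 to 11523 CPM and 2488 to 11378 CPM. Summed fibroblast markers reached 319 to 1341 CPM, while endothelial markers stayed at 6.97 to 20.0 CPM, immune markers at 1.73 to 12.1 CPM and adipocyte markers at 14.6 to 29.5 CPM, and the macrophage gene Adgre1 and the T cell gene Cd3e had no count in the Torin experiment. The third Torin D6 library stood apart: 7.67% of its genes were over 2-fold from the mean of the other 2 libraries of its group, against 0.536 to 3.77% for the other 11 libraries of the experiment. In it the factor gene Cebpb was at 1637 CPM against 10.5 and 11.1 CPM in the other 2, and the Notch target Hes1 at 310 CPM against 15.5 and 9.73 CPM. Foxa1 and Sox10 among the 10 genes were also far higher in that library, and values without it are given where they differ in call or size, and for all 10 genes in the comparison of both fits.

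Estradiol changed 5 of the 10 genes at an adjusted p under 0.05 (edgeR quasi-likelihood test, adjusted over all genes tested): Sox9 and Runx1 rose, and Elf3, Sox10 and Foxa1 fell. Over all genes tested 34% passed the same threshold, 17.4% upward and 16.6% downward. Torin in D6 changed 6 of 10, with Runx1, Sox9 and Ehf higher and Gata3, Elf5 and Elf3 lower, where the background was 39.1%, made of 19.8% higher and 19.3% lower. In D12 it changed 5 of 10, with Trp63, Runx1 and Sox9 higher and Elf3 and Elf5 lower, against a background of 25.4%, made of 10.8% higher and 14.6% lower. Elf3 was the gene of the 10 that passed downward in all 3 treatment comparisons, and Sox9 and Runx1 passed upward in all 3. Counted without adjustment of p, 5, 6 and 6 of 10 were under 0.05, beside 43.1%, 47.6% and 36.3% of all genes, with Tbx3 added in D12. Groups did not overlap for 5 of 10 genes with estradiol, 7 in D6 and 4 in D12, beside 46.4%, 48.5% and 43.7% of all genes. The Torin arms shared no library with each other or with the estradiol experiment.

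The sizes were modest. No gene of the 10 reached a 2-fold change in any of these fits with all libraries. The median absolute log2 fold change of the 10 genes was 0.15 for estradiol against 0.17 over all genes tested, 0.66 against 0.43 for Torin in D6, and 0.44 against 0.32 for Torin in D12. DMSO levels did not separate the arms: 0 of 10 genes passed between DMSO D12 and DMSO D6 in edgeR, in DESeq2 or at an unadjusted p under 0.05, where 0.00552% of all genes passed the adjusted threshold and 4.04% the unadjusted one. Groups did not overlap for 0 of 10, beside 12.2%, the log2 differences of the 10 genes ran from -0.23 to 0.23.

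**Figure D1:**
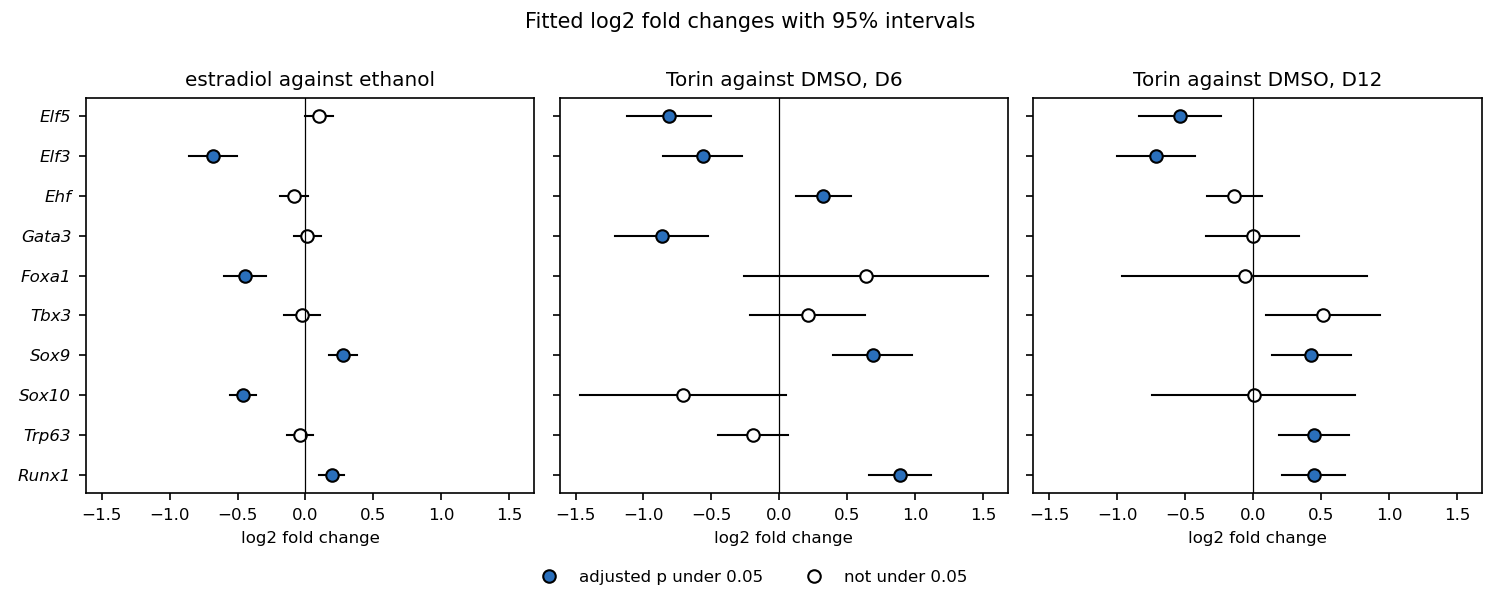
Fitted log2 fold change of each gene (horizontal axis) in the 3 treatment comparisons, with bars for the 95% interval of the fit and filled points for an adjusted p under 0.05. Elf3 lies left of 0 and Sox9 and Runx1 right of 0 in every panel, and the widest bars in D6 are those of Foxa1 and Sox10.

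Elf5 fell with Torin in both arms and did not pass with estradiol. Its level in D6 was 29.3, 38.7 and 35.1 CPM with DMSO and 19.5, 17.5 and 21.7 CPM with Torin. In D12 it was 39.8, 37.3 and 30.5 CPM with DMSO and 26.4, 21.7 and 26.0 CPM with Torin. Every Torin library was below every DMSO library of its arm. The log2 fold change was -0.81 ± 0.14 (SE) in D6 (adjusted p = 0.000745), a reduction of 43.0% (-0.90 without the third Torin libraries), and -0.54 ± 0.14 in D12 (adjusted p = 0.0142), a reduction of 31.1%. With estradiol the libraries overlapped, at 71.3, 74.8 and 72.4 CPM with ethanol and 77.0, 74.4 and 82.9 CPM with estradiol (log2 fold change 0.10, 95% interval 0.00 to 0.20, adjusted p = 0.126). The D12 call of Elf5 was lost without DMSO D12 replicate 1 (-0.46, adjusted p = 0.0673), without DMSO D12 replicate 2 (-0.51, adjusted p = 0.0508) and without Torin D12 replicate 2 (-0.45, adjusted p = 0.0646). With all libraries it was also lost by limma on the deposited signal (-0.51, adjusted p = 0.0774) and with a gene-length offset (-0.50, adjusted p = 0.0828), and over 21 alternatives the adjusted p ran from 0.00302 to 0.0828.

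Elf3, a factor of terminally differentiating epithelium, fell in all 3 treatment comparisons with no overlap between groups. With ethanol it was at 38.1, 31.5 and 32.0 CPM and with estradiol at 19.4, 22.6 and 21.5 CPM (log2 fold change -0.68 ± 0.08, adjusted p = 1.59e-05). With DMSO in D6 it was at 40.0, 51.1 and 41.7 CPM, and with Torin at 29.6, 28.1 and 32.0 CPM (-0.56 ± 0.13, adjusted p = 0.00539). In D12 the levels were 54.3, 52.1 and 49.6 CPM with DMSO and 33.2, 25.5 and 36.4 CPM with Torin (-0.71 ± 0.13, adjusted p = 0.00207). The reductions were 37.6% with estradiol, 32.4% with Torin in D6 and 39.0% with Torin in D12, and the call held in each alternative run at the same threshold, each single library left out included.

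Ehf, the third epithelial ETS factor and the chromosomal neighbour of Elf5, moved otherwise. In the RefSeq gene table of GRCm38.p6 no protein-coding gene lies between Ehf and Elf5 on chromosome 2, only 2 long non-coding RNA genes. In D6 Ehf was at 156, 167 and 167 CPM with DMSO and at 201, 192 and 220 CPM with Torin, without overlap (log2 fold change 0.32 ± 0.09, adjusted p = 0.0164). In D12 the groups overlapped, at 177, 179 and 152 CPM with DMSO and 151, 139 and 171 CPM with Torin (-0.14 ± 0.09, adjusted p = 0.316). Estradiol libraries overlapped with ethanol as well, at 169, 175 and 189 CPM against 195, 187 and 184 CPM (-0.09, 95% interval -0.19 to 0.02, adjusted p = 0.184). The D6 rise lost its call without DMSO D6 replicate 1 (0.29, adjusted p = 0.0671) or without Torin D6 replicate 3 (0.26, adjusted p = 0.0561), with a range of 0.00930 to 0.0671 over 21 alternatives.

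Within a library, the ratio of the counts of Elf5 to those of Ehf does not depend on scaling. In D6 the ratio was 0.188, 0.232 and 0.210 with DMSO and 0.0970, 0.0915 and 0.0987 with Torin. In D12 it was 0.225, 0.209 and 0.201 with DMSO and 0.175, 0.156 and 0.152 with Torin. With ethanol it was 0.365, 0.400 and 0.393, and with estradiol 0.455, 0.425 and 0.438. Torin libraries lay below their DMSO libraries in both arms and estradiol libraries above ethanol libraries, in each case without overlap. In D6 this follows from the levels above, where Elf5 was lower and Ehf higher without overlap. The size of such a ratio also depends on the lengths of both transcripts, so only the same ratio is compared between libraries.

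Among 17 other ETS genes listed, 15 were tested in the estradiol experiment and 16 in the Torin experiment. For this and the later lists, the share of all genes past the threshold was 34% with estradiol, 39.1% in D6 and 25.4% in D12. Without the third Torin library of each arm it was 41.3% in D6 and 35.6% in D12. With estradiol 4 rose and 3 fell, among them Ets1 (0.49, adjusted p = 7.48e-06) upward and the epithelial factor Spdef (-0.93, adjusted p = 0.00479) downward. Torin in D6 raised 4, among them Etv6 (0.89, adjusted p = 0.00467) and Elk3 (0.94, adjusted p = 0.00178), and lowered 1, Etv5, a target of ERK signalling, from 443 ± 26.3 to 240 ± 16.2 CPM (SD, n = 3). In D12 1 rose and 2 fell, with Etv5 again lower (-0.38, adjusted p = 0.00373). Without the third Torin library of each arm, an alternative for the lists added after the data were seen, 4 rose and 3 fell in D6 and 5 rose and 3 fell in D12. The median log2 fold change of the list was 0.02, 0.24 and 0.15 in the 3 comparisons, beside -0.01, 0.05 and 0.01 over all genes tested.

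The sequences just before the start sites of Elf5 and Elf3 are shown because these genes fell under Torin in both arms and Ehf did not. RefSeq windows of 250 bases before the start (GRCm38.p6) matched 5 of the 10 genes by symbol, namely Elf5, Elf3, Gata3, Foxa1 and Runx1, with 7 windows. Capitals mark matches, on either strand, to short motifs searched in each window: GGAAG (the ETS core), TGTGGT (RUNX), AGATAA (for GATA factors), TGTTTAC (forkhead), AACAAT (SOX), TTCNNNGAA (STAT) and TCACGTGA (the CLEAR element of lysosomal genes). GGAAG was found in 64.1% of all 32851 windows of this length, TGTGGT in 14.0%, AGATAA in 9.99%, AACAAT in 9.42%, TTCNNNGAA in 7.02%, TGTTTAC in 3.17% and TCACGTGA in 0.785%. The first Elf5 window lies at chr2:103411848-103412097 on the plus strand, the second at chr2:103423818-103424067 on the plus strand, and that of Elf3 at chr1:135258473-135258722 on the minus strand, all written 5′ to 3′.
Elf5 window 1: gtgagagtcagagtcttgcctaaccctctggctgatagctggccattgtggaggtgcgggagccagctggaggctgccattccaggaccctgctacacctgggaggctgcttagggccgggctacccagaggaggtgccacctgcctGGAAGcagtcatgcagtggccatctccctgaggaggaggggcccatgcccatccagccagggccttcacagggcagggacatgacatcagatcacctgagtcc
Elf5 window 2: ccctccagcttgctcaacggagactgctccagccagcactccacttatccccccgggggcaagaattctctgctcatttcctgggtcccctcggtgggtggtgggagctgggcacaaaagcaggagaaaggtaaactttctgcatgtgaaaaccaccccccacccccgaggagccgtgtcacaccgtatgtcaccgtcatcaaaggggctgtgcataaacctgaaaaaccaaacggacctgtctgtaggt
Elf3 window: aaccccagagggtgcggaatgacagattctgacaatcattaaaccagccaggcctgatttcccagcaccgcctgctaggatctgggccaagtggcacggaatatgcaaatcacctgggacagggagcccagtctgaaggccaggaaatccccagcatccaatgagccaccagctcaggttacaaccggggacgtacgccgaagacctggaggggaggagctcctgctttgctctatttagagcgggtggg
The first Elf5 window held 1 match, GGAAG, starting 103 bases before the start site, and the other windows shown here held none of the motifs. CpG dinucleotides numbered 2 and 8 in the Elf5 windows and 8 in that of Elf3, beside a median of 6 over all windows.

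Gata3, the factor that specifies and maintains luminal cells, fell with Torin in D6 and not in D12. Its level in D6 was 546, 609 and 580 CPM with DMSO and 319, 360 and 273 CPM with Torin, so that every Torin library lay below every DMSO library. In D12 it was 543, 514 and 584 CPM with DMSO and 624, 619 and 395 CPM with Torin, with the third Torin library below and the other 2 above all DMSO libraries. The log2 fold change was -0.87 ± 0.16 in D6 (adjusted p = 0.00107), a reduction of 45.2%, and -0.00 ± 0.16 in D12 (adjusted p = 0.990). Without the third Torin library of each arm the D12 value was 0.20 (adjusted p = 0.0465, with a range of 0.0465 to 1 over 21 alternatives), and the D6 value was -0.78. Estradiol left Gata3 at 76.6, 82.3 and 74.2 CPM beside 77.0, 76.8 and 76.9 CPM with ethanol (0.01, 95% interval -0.09 to 0.11, adjusted p = 0.846).

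Foxa1, a pioneer factor of hormone-sensing cells, fell with estradiol. Ethanol libraries were at 103, 100 and 110 CPM and estradiol libraries at 84.4, 80.2 and 66.2 CPM, without overlap (log2 fold change -0.44 ± 0.07, adjusted p = 0.000232). In D6 its level was 34.3, 35.3 and 31.4 CPM with DMSO and 25.6, 28.3 and 103 CPM with Torin: the first 2 Torin libraries lay below all DMSO libraries and the third far above them. With all libraries the log2 fold change was 0.64 ± 0.41 (adjusted p = 0.246), and without the third Torin library of each arm it was -0.33 ± 0.11 (adjusted p = 0.0316), with a range of 0.0316 to 0.542 over 21 alternatives. In D12 the groups overlapped, at 28.3, 33.2 and 24.8 CPM with DMSO and 27.5, 28.4 and 26.7 CPM with Torin (-0.06, adjusted p = 0.938).

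Tbx3, which marks hormone-sensing luminal cells, did not pass with all libraries in edgeR after the filter on low counts, and its D12 result depended on the setting. Ethanol libraries were at 30.3, 33.6 and 33.6 CPM and estradiol libraries at 33.6, 31.0 and 31.3 CPM. In D6 it was at 126, 138 and 123 CPM with DMSO and 149, 176 and 122 CPM with Torin (0.21 ± 0.19, adjusted p = 0.424). In D12 it was at 115, 118 and 154 CPM with DMSO and 221, 205 and 128 CPM with Torin (0.51 ± 0.19, adjusted p = 0.0737). The third library was the lowest of each Torin group, and in both arms the groups overlapped. Without these 2 libraries the log2 fold change was 0.32 in D6 (adjusted p = 0.0298, range 0.0298 to 0.813 over 21 alternatives) and 0.74 in D12 (adjusted p = 0.000129, range 0.000129 to 0.260). In D6 Tbx3 passed in 0 of 12 fits with a single library left out, that without Torin D6 replicate 3 included. On all libraries DESeq2 gave 0.52 in D12 (adjusted p = 0.0406) and edgeR with no filter 0.51 (adjusted p = 0.0298), and leaving out Torin D12 replicate 3 alone gave 0.72 (adjusted p = 0.00593).

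The hormone-sensing markers measured beside these factors split in each comparison. Of 11 tested, 5 rose and 4 fell with estradiol, among them Pgr, the progesterone receptor (2.45, adjusted p = 8.45e-11), and the estrogen target Greb1 (4.56, adjusted p = 2.16e-07) upward, and Esr1, the estrogen receptor itself (-0.92, adjusted p = 1.97e-07), and Cited1 (-2.19, adjusted p = 4.37e-08) downward. Torin in D6 raised 4 and lowered 5, among them Esr1 from 92.6 to 39.3 CPM, and in D12 raised 4 and lowered 5, or 4 and 4 in D6 and 5 and 5 in D12 without the third Torin libraries. Their summed level was 679 to 737 CPM with DMSO and 471 to 535 CPM with Torin in D6, and 595 to 706 CPM and 428 to 467 CPM in D12. In bulk RNA, fewer cells of a type and less RNA per cell cannot be told apart, here or in the results that follow.

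Few other GATA, FOXA and TBX genes were measured: of 17 listed, 5 were tested in the estradiol experiment and 7 in the Torin experiment. Foxa2, a relative of Foxa1 best known from gut and liver, was at 1.28, 0.0895 and 0.397 CPM with DMSO and at 13.5, 11.6 and 16.6 CPM with Torin in D6 (4.52, adjusted p = 0.000103). Foxa3 fell from 31.6 ± 4.07 to 11.5 ± 3.19 CPM in D6 (SD, n = 3, log2 fold change -1.46, adjusted p = 0.000209) and did not pass in D12. Tbx15 rose in D12, from 3.18 ± 0.464 to 12.9 ± 2.21 CPM, and with estradiol (0.94, adjusted p = 0.0157).

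Sox9 rose in all 3 treatment comparisons. Ethanol libraries were at 173, 156 and 175 CPM and estradiol libraries at 207, 206 and 197 CPM, without overlap (log2 fold change 0.28 ± 0.05, adjusted p = 0.00047). In D6 it was at 599, 627 and 661 CPM with DMSO and 965, 1121 and 954 CPM with Torin, without overlap (0.69 ± 0.13, adjusted p = 0.00163, and 0.72 without the third Torin libraries). In D12 DMSO libraries were at 673, 633 and 753 CPM and Torin libraries at 1086, 962 and 721 CPM (0.43 ± 0.13, adjusted p = 0.0346). There the third Torin library overlapped with DMSO. The D12 call was lost in 5 of 12 fits with a single library left out: DMSO D6 replicate 2 (adjusted p = 0.0508), DMSO D12 replicates 1 and 2 (0.105 and 0.127) and Torin D12 replicates 1 and 2 (0.151 and 0.103), with log2 fold changes of 0.30 to 0.58 over the 12 fits. With all libraries and the replicate number as a block it was lost as well (0.42, adjusted p = 0.0622). Over all 21 alternatives the adjusted p in D12 ran from 0.000115 to 0.151.

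Sox10, a neural crest factor that also serves mammary progenitor and basal cells, fell with estradiol from 170, 164 and 159 CPM to 123, 121 and 115 CPM, without overlap (-0.46 ± 0.05, adjusted p = 2.31e-06), a reduction of 27.2%. In D6 it was at 49.8, 53.9 and 51.8 CPM with DMSO and at 18.8, 18.1 and 58.1 CPM with Torin. The first 2 Torin libraries were far below and the third above all DMSO libraries, and the fit with all libraries gave -0.71 ± 0.35 (adjusted p = 0.127). Without the third Torin library of each arm it gave -1.50 ± 0.09 (adjusted p = 1.54e-08, range 1.54e-08 to 0.347 over 21 alternatives). On all libraries limma on the deposited signal gave -0.91 (adjusted p = 0.0496). In D12 the levels were 52.6, 54.0 and 50.2 CPM with DMSO and 49.7, 59.2 and 48.4 CPM with Torin, with overlap (0.00, 95% interval -0.75 to 0.75, adjusted p = 0.996).

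Markers of Schwann cells, a further cell type that depends on Sox10, fell in larger number than they rose with Torin in D6 but not in D12. Of 6 tested, 0 rose and 5 fell in D6, among them the neurotrophin receptor gene Ngfr, from 24.6 ± 2.77 to 11.9 ± 2.24 CPM (SD, n = 3), while 1 rose and 1 fell in D12. The summed level of all 8 listed markers was 77.8 to 86.3 CPM with DMSO and 38.8 to 40.6 CPM with Torin in D6, and 66.3 to 77.5 CPM and 73.8 to 86.6 CPM in D12. None of the 8 was without counts. With estradiol the sum was 41.3 to 44.9 CPM beside 47.3 to 51.6 CPM with ethanol. In the third Torin D6 library the Schwann markers were as low as in the other 2 while Sox10 was not. Their part in the Sox10 result was not tested.

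The ratio of Sox10 to Sox9 counts was 0.982, 1.05 and 0.913 with ethanol and 0.593, 0.589 and 0.582 with estradiol. In D6 it was 0.0831, 0.0860 and 0.0784 with DMSO and 0.0195, 0.0162 and 0.0610 with Torin. In D12 it was 0.0782, 0.0853 and 0.0667 with DMSO and 0.0457, 0.0616 and 0.0671 with Torin. Estradiol and Torin D6 libraries lay below their vehicle libraries without overlap, the third Torin D6 library included, and in D12 the third libraries made the groups overlap. With estradiol this follows from the levels above, where Sox10 was lower and Sox9 higher without overlap. Both experiments were scaled separately and differ in culture, mouse age and vehicle, so the gap in this ratio between them was not tested.

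Among 9 other SOX genes tested, estradiol raised 3 and lowered 5, with Sox7 at 21.6 ± 2.78 CPM with ethanol and 7.77 ± 0.637 CPM with estradiol. Sox7, a factor best known from endothelium, fell in D6 (-1.20, adjusted p = 1.21e-05) and in D12 (-1.39, adjusted p = 1.14e-05) as well. Torin in D6 raised 1, Sox11 (1.93, adjusted p = 0.000597), and lowered 4, among them Sox5 from 20.4 ± 0.975 to 6.85 ± 0.476 CPM. In D12 it raised 1, Sox8 (0.96, adjusted p = 0.00125), the closest relative of Sox9 and Sox10 in the list, and lowered 1, Sox7. The list median was -0.33 with estradiol, -0.23 in D6 and 0.04 in D12, and without the third Torin libraries -0.71 in D6, where 1 rose and 5 fell, and 0.20 in D12.

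**Figure D2:**
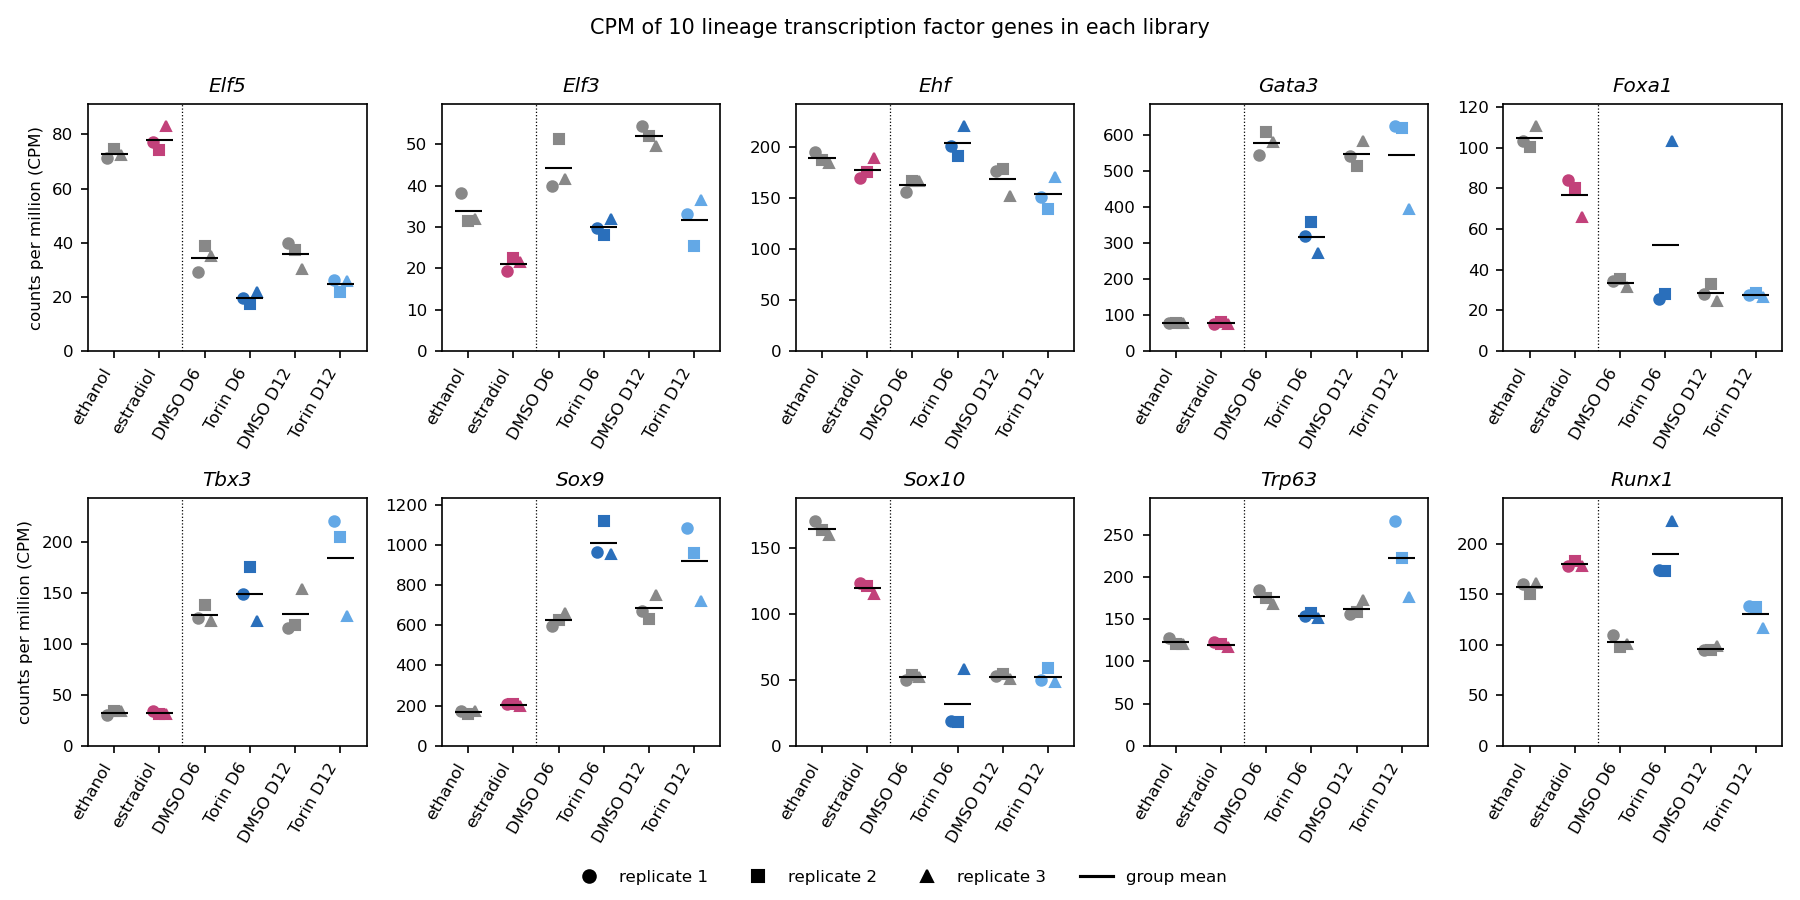
Level of each gene in every library (vertical axis, CPM from 0) by group, with symbols for replicates 1 to 3, a bar for the group mean and a dotted line between the separately scaled experiments. The third Torin D6 library (triangle) lies at 103 CPM for Foxa1 and 58.1 CPM for Sox10, above the other 2 of its group. The third Torin D12 library is the lowest of its group for Gata3, Foxa1, Tbx3, Sox9, Sox10, Trp63 and Runx1.

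Trp63, the p63 gene, rose with Torin in D12. It was at 156, 159 and 174 CPM with DMSO and 267, 223 and 177 CPM with Torin, without overlap (log2 fold change 0.45 ± 0.12, adjusted p = 0.0151), a rise of 1.37-fold. In D6 every Torin library lay below every DMSO library, at 154, 157 and 151 CPM against 185, 175 and 168 CPM, but the difference missed the threshold (-0.19 ± 0.12, adjusted p = 0.224). With estradiol it was at 123, 121 and 117 CPM beside 128, 121 and 121 CPM with ethanol (-0.04, 95% interval -0.13 to 0.06, adjusted p = 0.534). The D12 call was lost without DMSO D12 replicate 1 (0.42, adjusted p = 0.0638), without DMSO D12 replicate 2 (0.43, adjusted p = 0.0565) or without Torin D12 replicate 1 (0.30, adjusted p = 0.0589), and over 21 alternatives the adjusted p ran from 4.55e-05 to 0.0638. The D12 value was 0.61 (adjusted p = 4.55e-05) without the third Torin library of each arm.

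Genes known as p63 targets were described from a list of 17, of which 16 were tested in the estradiol experiment. In D12, where Trp63 rose, 1 rose and 8 fell: the basal keratin Krt5 fell from 826 ± 21.6 to 379 ± 29.3 CPM (SD, n = 3, -1.13, adjusted p = 1.52e-05), the desmosomal cadherin Dsc3 by 0.97 on the log2 scale (adjusted p = 2.28e-05), and Trim29 by 0.43 (adjusted p = 0.000942). In D6 4 rose and 6 fell, with Krt5 at 689 ± 50.6 CPM with DMSO and 75.3 ± 10.7 CPM with Torin (-3.19, adjusted p = 5e-09) and the hemidesmosomal collagen Col17a1 lower (-1.84, adjusted p = 5.42e-07). With estradiol 5 rose and 4 fell, among them Igfbp3 (1.45, adjusted p = 1.22e-08) upward and Fgfr2 (-0.85, adjusted p = 1.37e-07) downward. The median log2 fold changes of the list were 0.01 with estradiol, -0.02 in D6 and -0.13 in D12. Leaving out the third Torin libraries, 3 rose and 10 fell in D6, with a median of -0.34, and 4 rose and 8 fell in D12, with a median of -0.10.

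Basal myoepithelial markers, 17 tested, showed 6 rises and 8 falls with estradiol, 5 and 5 in D6, and 2 and 7 in D12, or 5 and 8 in D6 and 3 and 7 in D12 without the third Torin libraries. Among those lower with estradiol were Mylk (-0.77, adjusted p = 3.59e-06), Cnn1 (-0.71, adjusted p = 4.95e-05) and Acta2 (-0.45, adjusted p = 9.35e-05), while Krt14 (0.24, adjusted p = 0.000101) and Col17a1 (0.24, adjusted p = 0.000249) were higher. The summed level was 10396 to 10961 CPM with ethanol and 10849 to 11378 CPM with estradiol, with overlap. In D12 the oxytocin receptor gene Oxtr rose from 24.0 to 63.8 CPM and the keratin Krt17 fell from 436 to 114 CPM. In the Torin experiment the sum was 3707 to 4244 CPM with DMSO and 2488 to 3115 CPM with Torin in D6, and 4674 to 5043 CPM and 2799 to 3355 CPM in D12, and the part of this in the Trp63 values was not tested.

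The p53 relatives of Trp63 were measured too. Trp53, the p53 gene, rose with estradiol (0.30, adjusted p = 0.000233), with Torin in D6 from 66.9 ± 2.70 to 119 ± 14.1 CPM (0.83, adjusted p = 8.88e-05) and in D12 (0.37, adjusted p = 0.0252). Trp73 fell with estradiol (-0.54, adjusted p = 1.53e-05) and rose in D12 (0.69, adjusted p = 0.00701), where its Torin libraries were at 21.3, 16.5 and 18.6 CPM and its DMSO libraries at 9.83, 14.3 and 10.9 CPM. In D6 it did not pass (-0.07).

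Runx1 rose in all 3 treatment comparisons and had the lowest adjusted p of the 10 genes in D6. With ethanol it was at 160, 150 and 161 CPM and with estradiol at 178, 183 and 178 CPM (log2 fold change 0.19 ± 0.04, adjusted p = 0.00275). In D6 it was at 110, 97.3 and 101 CPM with DMSO and 174, 173 and 222 CPM with Torin (0.89 ± 0.11, adjusted p = 4.39e-05), a rise of 1.85-fold. In D12 the levels were 94.4, 94.3 and 99.0 CPM with DMSO and 138, 138 and 116 CPM with Torin (0.45 ± 0.11, adjusted p = 0.00858), a rise of 1.36-fold. No treated library overlapped with its vehicle in any of the 3 comparisons, and the calls held in every alternative run at the same threshold, each single library left out included. The partner gene Cbfb, whose product binds DNA with Runx1, rose with estradiol (0.20, adjusted p = 0.0028), and in D6 the third Torin library alone was high, at 136 CPM beside 30.9 and 35.6 CPM.

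Runx1 has promoters far apart, and both RefSeq windows before its starts are shown because its rise was shared by all treatments. They lie at chr16:92826075-92826324 and chr16:92697330-92697579 (GRCm38.p6), both on the minus strand and written 5′ to 3′, with motif matches in capitals as for Elf5.
Runx1 window 1: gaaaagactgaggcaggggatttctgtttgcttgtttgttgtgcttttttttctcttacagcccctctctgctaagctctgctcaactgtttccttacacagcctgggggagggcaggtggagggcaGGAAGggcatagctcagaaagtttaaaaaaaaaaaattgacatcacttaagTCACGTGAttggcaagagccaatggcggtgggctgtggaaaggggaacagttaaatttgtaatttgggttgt
Runx1 window 2: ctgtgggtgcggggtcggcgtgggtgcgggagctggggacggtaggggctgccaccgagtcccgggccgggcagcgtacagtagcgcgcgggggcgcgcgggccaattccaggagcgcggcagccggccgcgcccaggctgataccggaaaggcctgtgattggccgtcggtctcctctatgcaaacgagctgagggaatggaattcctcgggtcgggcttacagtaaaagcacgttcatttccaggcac
The first window held GGAAG 123 bases and TCACGTGA 72 bases before the start site, and the second held no match. CpG dinucleotides numbered 2 in the first and 27 in the second. The counts are per gene, so they do not say which promoter was in use.

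The ratio of Runx1 to Elf5 counts separated Torin from DMSO in both arms. This is no further result, since Runx1 was higher and Elf5 lower without overlap in each arm. In D6 it was 3.74, 2.52 and 2.87 with DMSO and 8.95, 9.88 and 10.2 with Torin. In D12 it was 2.37, 2.53 and 3.24 with DMSO and 5.23, 6.33 and 4.47 with Torin. With ethanol it was 2.24, 2.01 and 2.22 and with estradiol 2.30, 2.46 and 2.15, with overlap. The ratio of Elf5 to Trp63, a luminal to a basal factor, was 0.158, 0.221 and 0.209 with DMSO and 0.126, 0.112 and 0.143 with Torin in D6, and 0.255, 0.235 and 0.176 against 0.0990, 0.0974 and 0.147 in D12. It too was lower in every Torin library than in every DMSO library of its arm, which in D12 again follows from the levels of both genes. Other ratios formed did not all separate Torin from DMSO. Gata3 to Elf5 overlapped in both arms, while Gata3 to Trp63 was lower with Torin in both. Elf5 to Elf3 was lower and Foxa1 to Gata3 higher with Torin in D6, and both overlapped in D12.

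**Figure D3:**
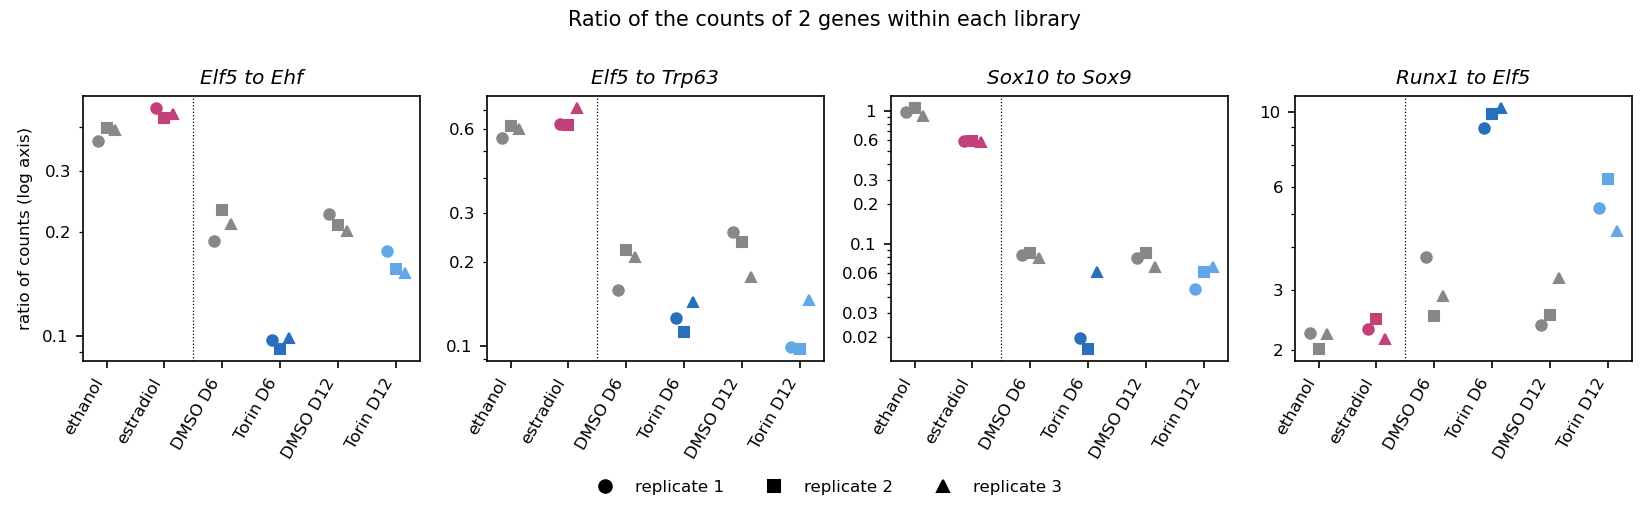
Ratio of the counts of 2 genes within each library (vertical log axis) by group, with symbols for replicates 1 to 3. Elf5 to Ehf and Elf5 to Trp63 are lower and Runx1 to Elf5 higher in every Torin library than in the DMSO libraries of the same arm, while for Sox10 to Sox9 the Torin and DMSO libraries overlap in D12.

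The Torin effects were compared between the arms by their difference in the same fit. It passed for 3 of 10 genes, beside a background of 10.6% (5.03% higher and 5.55% lower, and 24.2% without adjustment, where 4 of 10 were under 0.05): Gata3 (0.86 ± 0.22, D12 minus D6, adjusted p = 0.0290) and Trp63 (0.64 ± 0.17, adjusted p = 0.0304), with the effect more positive in D12, and Ehf (-0.46 ± 0.13, adjusted p = 0.0443), with the effect more positive in D6. Runx1 missed the threshold (-0.44 ± 0.15, adjusted p = 0.0842), and so did Elf5 (0.27 ± 0.20, adjusted p = 0.435), Elf3 (-0.15 ± 0.19, adjusted p = 0.671) and Sox9 (-0.26 ± 0.19, adjusted p = 0.436), whose Torin effects are therefore not shown to differ between the arms. These calls were lost under several settings. With a single library of the experiment left out, Gata3 and Trp63 each lost it in 7 of 12 fits and Ehf in 9 of 12, always with the same sign, at 0.76 to 1.05, 0.50 to 0.78 and -0.55 to -0.38. With all libraries the call of Ehf was also lost with RLE size factors (adjusted p = 0.0509), no filter (0.0862), limma (0.0510), a gene-length offset (0.0559) and the replicate block (0.0737), with a range of 0.00948 to 0.116 over 20 alternatives. Without the third Torin library of each arm 4 of 10 passed, with a background of 17.9%, and Sox10 joined at 1.57 ± 0.12 (adjusted p = 1.24e-06, range 1.24e-06 to 0.577 over 20 alternatives). In that fit Gata3 was at 0.98 (adjusted p = 1.91e-05), Trp63 at 0.80 (adjusted p = 0.000249) and Ehf at -0.46 (adjusted p = 0.00948).

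Without the third Torin library of each arm, 9 of 10 genes passed in D6, beside 41.3% of all genes tested. Tbx3, Foxa1 and Sox10 were added, and the sign of Foxa1 turned. The value of Sox10 went from -0.71 to -1.50, while Trp63 stayed out (-0.19, adjusted p = 0.0791). In D12 7 of 10 passed, beside 35.6%, with Gata3 and Tbx3 added. With Torin D6 replicate 3 alone left out, 7 of 10 passed in D6, 2 higher and 5 lower. There Ehf (0.26, adjusted p = 0.0561) and Tbx3 did not pass. Torin D12 replicate 3 holds no D6 value but enters the shared estimate of the spread. Of its genes 1.39% were over 2-fold from the mean of the others of its group. In the third Torin D6 library 24 genes with a transcript GC content above 65% were higher than in the other 2 by a median of 1.72 on the log2 scale, and the 387 genes from 60 to 65% by 0.07. For the 2840 genes from 50 to 55% the median was -0.02. The longest transcript of Sox10 has 61.8% GC, that of Foxa1 54.2%, that of Cebpb 67.2% and that of Hes1 50.7% (GENCODE vM21). The part of base composition in these values was not tested.

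**Figure D4:**
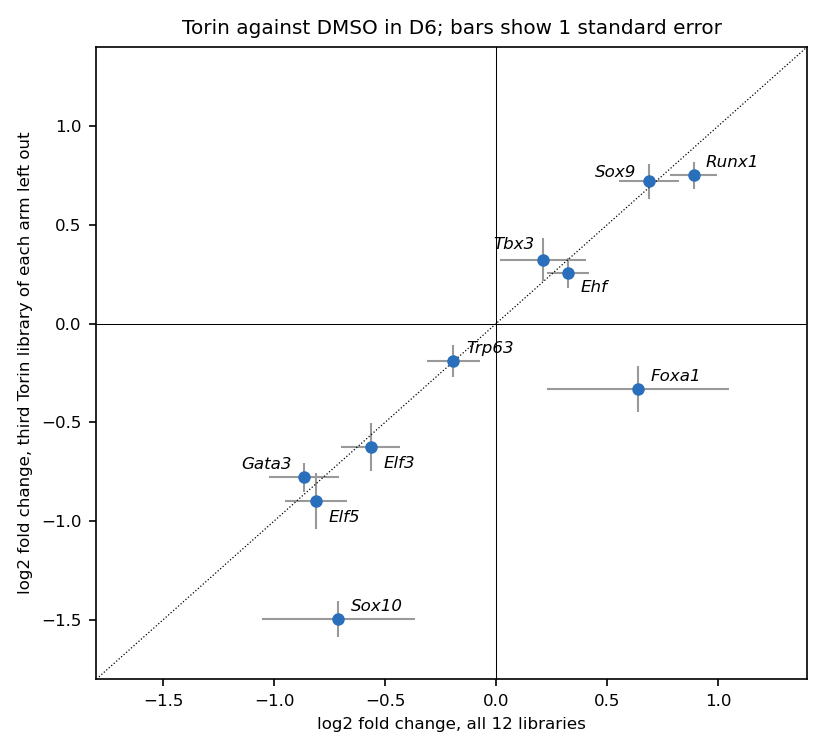
Log2 fold change of Torin against DMSO in D6 for each of the 10 genes, with all 12 libraries (horizontal axis) and with the third Torin library of each arm left out (vertical axis), bars for 1 standard error and a dotted line of equality. Foxa1 goes from 0.64 to -0.33 and Sox10 from -0.71 to -1.50, and the other 8 genes lie near the line.

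Marker genes of the luminal progenitor state fell in larger number with Torin than they rose. The factors tied to that state did not move together: Elf5 fell in both arms, Sox9 rose in both, and Ehf rose in D6 and did not pass in D12. Of 13 markers tested, 2 rose and 9 fell in D6, with Trf, the transferrin gene, at 50218 CPM with DMSO and 11479 CPM with Torin (-2.13, adjusted p = 8.49e-07), Wfdc18 lower by 2.52 on the log2 scale (adjusted p = 5.43e-07) and Ltf higher (2.58, adjusted p = 3.43e-07). In D12 0 rose and 5 fell, among them Ltf (-1.70, adjusted p = 2.28e-05) and Wfdc18 (-0.86, adjusted p = 0.00243). With estradiol 7 rose and 6 fell, with Aldh1a3 upward (0.31, adjusted p = 1.03e-05) and Ltf downward (-1.43, adjusted p = 1.64e-08). Their medians were 0.11, -0.89 and -0.21 in the estradiol, D6 and D12 comparisons, and without the third Torin libraries the counts were 2 and 9 in D6 and 0 and 7 in D12.

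Of 12 pan-luminal markers 7 rose and 2 fell in D6, and 0 rose and 5 fell in D12. Krt18, a keratin of all luminal cells, went from 2355 to 3909 CPM in D6 (0.73, adjusted p = 8.73e-05) and from 2727 to 2214 CPM in D12 (-0.30, adjusted p = 0.0355). When the third Torin library of each arm was left out, 6 rose and 4 fell in D6, and 1 rose and 8 fell in D12. With estradiol 6 rose and 2 fell, with changes from -0.26 for Epcam to 0.32 for Krt19.

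Milk synthesis genes, the classic output of Elf5, were tested for 8 of 12 listed. With Torin in D6 1 rose and 5 fell, among them the casein gene Csn3, from 843 to 328 CPM (-1.36, adjusted p = 0.00016), and Xdh, needed for milk fat secretion, from 222 to 99.4 CPM (-1.16, adjusted p = 2.34e-06). In D12 2 rose and 2 fell, with Xdh from 224 to 109 CPM (-1.04, adjusted p = 1.5e-05). With estradiol, where Elf5 did not pass, 1 rose and 6 fell, among them Csn1s1 (-0.97, adjusted p = 2.1e-07). The list did not move in 1 direction. Its log2 fold changes ran from -1.34 to 4.29 with estradiol, from -2.85 to 3.31 in D6 and from -1.355 to 4.05 in D12. The summed level was 1191 to 1351 CPM with DMSO and 424 to 621 CPM with Torin in D6, 1053 to 1311 CPM and 892 to 1124 CPM in D12, which overlap, and 1269 to 1423 CPM with ethanol and 984 to 1021 CPM with estradiol.

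Another 38 transcription factors with a role in the gland were fixed as a comparison list, and all were tested. Estradiol raised 10 and lowered 11, D6 11 and 13, and D12 7 and 7, with medians of -0.10, -0.01 and 0.04. Over all genes tested, 34%, 39.1% and 25.4% passed in these comparisons. Stat5a, which acts with Elf5 in alveolar cells, rose with estradiol (1.11, adjusted p = 2.38e-10) and in D12 (0.64, adjusted p = 0.000526), where Torin libraries were at 130, 131 and 120 CPM and DMSO libraries at 84.7, 83.5 and 77.4 CPM. The homeobox gene Msx2 (3.10, adjusted p = 7.07e-12) and Klf4 (1.53, adjusted p = 5.42e-10) rose with estradiol. Xbp1, a factor of secretory cells, fell in D6 from 2571 ± 210 to 928 ± 34.7 CPM and in D12 from 2694 ± 62.2 to 1440 ± 114 CPM. The Notch target Hey1 fell from 247 ± 20.3 to 57.7 ± 2.95 CPM in D6 and by 0.54 on the log2 scale in D12 (adjusted p = 0.000254). With the third Torin libraries left out the counts of this list were 10 higher and 17 lower in D6, with a median of -0.28, and 13 higher and 9 lower in D12, with a median of 0.07.

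Genes of other cell types and states were counted in the same way. Of 13 fibroblast markers 6 rose and 2 fell with estradiol, 0 rose and 12 fell in D6 (median -1.63) and 2 rose and 2 fell in D12, or 0 and 11 in D6 and 2 and 5 in D12 without the third Torin libraries. Their summed level was 973 to 1341 CPM with DMSO and 319 to 361 CPM with Torin in D6, where Gata3 was lower too, and 968 to 1113 CPM and 807 to 1132 CPM in D12. Squamous keratinization markers rose for 3 and fell for 4 of 11 with estradiol, and of 12 rose for 2 and fell for 4 in D6, and for 2 and 7 in D12. Of the endothelial markers 3 were tested and 1, Pecam1, passed, in D12 (-0.76, adjusted p = 0.0325). Of 3 immune markers tested, 1 rose and 1 fell with estradiol, 1 rose and 2 fell in D6, and 0 rose and 1 fell in D12. Cd68 was lower in all 3 treatment comparisons, while the highest log2 fold change of the list was 1.74 with estradiol and 1.63 in D6. Among adipocyte markers Pparg rose and Lipe fell in all 3. The part of these cell types in the results for the 10 factors was not tested.

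The genes most like each factor over the 12 Torin-experiment libraries were chosen among 10758 genes averaging 5 CPM or more, by Pearson's r of log2(CPM + 0.5). This is a description: libraries of a group share treatment and batch tag. Btbd19 (0.98), Cx3cl1 and Tmem51 were closest to Elf5, Pxmp4 (0.99), Hcfc1r1 and Tmem109 to Elf3, and the luminal progenitor marker Plet1 (0.97), Commd8 and Mrpl10 to Ehf. Nfia (0.99), Dpysl2 and Fam219b were closest to Gata3, Otub1 (0.98), Nras and Cdv3 to Tbx3, and Pla2g12a (0.99), Ppp1r13b and Cab39 to Foxa1. Taf12 (0.97), Rhot2 and Scap were closest to Sox9, Gas1 (0.98), Copz2 and Aplp1 to Sox10, Frat1 (0.91), Tcf7l2 and Lyrm4 to Trp63, and Nexn (0.98), Plekhh1 and Adgrl2 to Runx1. Some of these follow the third Torin libraries: Gas1 was at 28.4, 27.6 and 107 CPM with Torin in D6, as Sox10 was high in the third, and Nfia at 420, 390 and 192 CPM with Torin in D12, as Gata3 was low in the third.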

How the data were processed

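Gene expression was measured by RNA-seq of polyadenylated RNA in 18 libraries of 6 groups. Per the submitters' processing notes, the reads went through Trim Galore and cutadapt, quality reports (FastQC, MultiQC), kallisto and DESeq2, with the build GRCm39, and versions and settings are not given in the sources used here. The deposited estradiol table gives estimated counts, with 32.2% of its values not whole, so these were rounded. The deposited Torin table gives whole counts. Normalized values deposited by the authors, a signal scaled per gene and library, served only for an alternative test.

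Each experiment was fitted separately in edgeR 4.0.16 (R 4.3.3): filterByExpr, TMM scaling, the quasi-likelihood test with no covariates, and Benjamini-Hochberg adjustment over all genes tested. Both arms of the Torin experiment shared 1 fit. The biological coefficient of variation was 5.27% for estradiol and 20.2% for Torin. On simulated data the procedure recovered 99% of 100 genes changed by 1 on the log2 scale for estradiol (15356 genes) and 67% for Torin in D6 (17710 genes). No columns held identical values. Alternatives used DESeq2 1.42.0, limma 3.58.1 on log2(signal + 1) with a mean of at least 10, and other filters, scalings, thresholds and sets of libraries.

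The 10 genes and the gene lists were chosen with earlier results of these data known. Named besides the 10 are, of each list and comparison, up to 4 genes past the threshold with the lowest p and a mean of at least 1 CPM, paralogs with such a mean, and the 3 genes most like each factor. Cbfb in D6, Cebpb, Hes1 and genes cited for a missed threshold were chosen after their values were seen. Levels were not compared between genes. Transcript GC content came from GENCODE vM21, with a value for 96.8% of the genes used. How reads were assigned to a strand or shared between similar genes is not given in the sources used here. Some genes that this rule names are not reported here.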

Additional observations from a re-analysis of the deposited data

Results flagged for a closer look

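The Torin effect differed between the arms for 3 of the 10 genes by the interaction test (edgeR, adjusted p under 0.05), beside 10.6% of all genes tested. With a single library left out the call was lost in 7 of 12 fits for Gata3, 7 of 12 for Trp63 and 9 of 12 for Ehf. For Gata3 the difference of the log2 fold changes, D12 minus D6, was 0.86: the gene fell in D6, where the 3 Torin libraries lay below the 3 DMSO libraries, and did not pass in D12. For Trp63 the difference was 0.64, with a rise in D12 and a value below 0 that did not pass in D6. For Ehf it was -0.46, with a rise in D6 and a value below 0 that did not pass in D12. The arms differ in batch tag and length of treatment, and these cannot be told apart.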

How the results depend on the processing

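The calls with estradiol kept their side of the threshold in each of 13 alternatives at the same threshold. Requiring at least a 2-fold change left 0 genes with estradiol, 0 with Torin in D6, 0 in D12 and 0 for the difference between arms. An adjusted p under 0.01 left 2 in D12 and 0 for the difference. With 1 library left out in turn, the number past the threshold was 5 to 5 with estradiol, 5 to 7 in D6, 2 to 6 in D12 and 0 to 3 for the difference. It fell to 2 in D12 without DMSO D12 replicate 1 or 2, and to 3 without Torin D12 replicate 1 or 2. Fewer libraries were fitted in these, and for the other changes the cause was not tested.

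Signs turned for the following values, of which those of Foxa1 in D6 and for the difference (0.64 and -0.70 with all libraries) were not near 0. For Tbx3 with estradiol the log2 fold change was -0.02, with 0.0786 for limma on the deposited signal, 0.0577 with a gene-length offset and -0.0690 to 0.00708 with 1 library left out. For Gata3 with estradiol leaving out 1 library gave -0.0270 to 0.0480. For Gata3 in D12 it was 0.0049 with a filter of 1 CPM in 3 libraries, 0.0199 with the offset, 0.0061 with only the groups compared, 0.20 without the third Torin libraries and -0.11 to 0.18 with 1 library left out. For Foxa1 without the third Torin libraries it was -0.33 in D6 and 0.31 for the difference, and with 1 library left out it was -0.33 to 0.96 in D6, -0.16 to 0.0512 in D12 and -1.01 to 0.29 for the difference. For Sox10 in D12 leaving out 1 library gave -0.0929 to 0.0583.

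No sign of pairing by replicate number was seen. Correlations of the deviations of same-numbered libraries ran from -0.0461 to -0.0204 in the estradiol experiment and from -0.184 to 0.111 in the Torin experiment. Those of differently numbered libraries ran from 0.00559 to 0.0373 and from -0.215 to 0.239. These values cannot exclude that libraries of the same number shared a mouse or culture. With the replicate number as a block, 5 genes passed with estradiol, 6 in D6, 4 in D12, 2 for the difference and 0 between DMSO groups.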
